A study of Mus musculus with 74 samples.

Results

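The 34 genes described here make fatty acids, triglycerides and sterols or control the genes that do. They form a list of known pathway genes, matched by symbol. The list was chosen with earlier results of these data known. All 34 were found, of 24940 genes named in the poly(A) tables and likewise in the RiboTag and nascent RNA tables. Of them, 18 belong to fatty acid and triglyceride synthesis, 11 are enzymes of sterol synthesis and 5 (Srebf1, Srebf2, Scap, Insig1 and Insig2) form the sterol-sensing switch. The study deleted Bcl6, which encodes a transcriptional repressor, in quadriceps muscle of C57BL/6 mice and measured RNA, ribosome footprints and chromatin. Poly(A) RNA came from 5 knockouts (AEC-Esr Cre (+):Bcl6 fl/fl, treated with TMX, tamoxifen), 4 Cre-negative controls (Bcl6 fl/fl, TMX) and 4 Cre-positive controls of the knockout genotype given oil. RiboTag mice carry a ribosomal protein that gains an HA tag in cells with Cre activity. Ribosome footprints and mRNA were measured in 4 knockouts (AEC-Esr Cre (+):Bcl6 fl/fl; RiboTag (+), TMX) and 4 controls (AEC-Esr Cre (+); RiboTag (+), TMX), whose label does not list a floxed Bcl6 allele. Nascent RNA had 5 libraries from wild-type mice given FX1, a small-molecule inhibitor of BCL6, and 5 libraries from wild-type mice given DMSO, its solvent. Acetylation of histone H3 at lysine 27 (H3K27ac), which marks active regulatory DNA, had 3 knockout and 3 Cre-negative libraries per series: an acute and a chronic series, counted in merged acetylated regions, and a series counted in 1000 bp windows on BCL6 peaks. BCL6 binding was mapped in 1 wild-type library. The labels give no age or sex, and do not spell out the promoter that drives Cre or whether RiboTag mRNA is total muscle RNA or RNA pulled down with the tag. Libraries carry animal numbers, except those of nascent RNA, where nothing says that numbered libraries are separate mice and p-values measure only the spread between libraries.

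Fatty acid synthesis starts from citrate: Acly splits it into acetyl-CoA, Acaca makes malonyl-CoA, and Fasn builds palmitate, which Elovl enzymes lengthen and Scd and Fads enzymes desaturate. Gpam, Lpin1, Dgat1 and Dgat2 act in the pathway that joins fatty acids to glycerol, in which Dgat1 and Dgat2 catalyse the same step. Sterol synthesis runs from Hmgcs1 through Mvd, Idi1 and Fdps to Fdft1, which commits carbon to squalene, and on through Sqle, Lss and Cyp51 to cholesterol. SREBP proteins (from Srebf1 and Srebf2) switch these genes on when Scap carries them out of the endoplasmic reticulum, and Insig1 and Insig2 hold them back. Muscle fibres make little fat compared with liver or fat cells, so RNA of these genes in whole muscle can come from both fibres and the adipocytes between them.

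Library totals in units of 1000 tags ran from 6704 to 7624 for poly(A) RNA, 6500 to 13046 (counts in genes) for RiboTag mRNA, 3249 to 4370 for footprints, 13947 to 32671 for nascent RNA and 7795 to 23016 for H3K27ac. Bcl6 itself fell by 0.23 on the log2 scale against Cre-negative muscle (adjusted p = 0.0134) and by 0.31 against oil (adjusted p = 0.00264), and its footprints fell by 1.12 (adjusted p = 0.00201). Its RiboTag mRNA was not lower (log2 change 0.14, adjusted p = 0.84). RiboTag counts of mRNA and of footprints both cover the whole gene, including its undeleted part. How much that part adds was not tested, and these counts do not check the labels. The 32 tested markers of cells other than muscle fibres had a median log2 change of -1.07 in footprints. Muscle fibre markers (Ckm, Acta1, Myh4, Ttn and Mylpf) were far above the markers of other cells in each RNA data set, with a summed footprint level of 26320 to 33100 CPM (counts scaled to a common library total) in controls against 988 to 1289 for 12 adipocyte markers. None of the 12 was at 0 in every control library.

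In Cre-negative muscle, the level of the 34 genes per kilobase of exon, on the linear scale of the authors' transformed values, ran from 8.24 for Idi1 to 594 for Lpin1, a phosphatidate phosphatase that also acts in fat and muscle gene control. Me1, the malic enzyme that supplies NADPH, followed at 417, then Mlxipl, the glucose-sensing factor ChREBP, at 407 and Gpam, the first enzyme of triglyceride synthesis in mitochondria, at 366. Fasn stood at 94.97 and Acaca at 28.6. The log2 changes of all 34 genes in the RNA comparisons are drawn in the heat map.

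**Figure D1:**
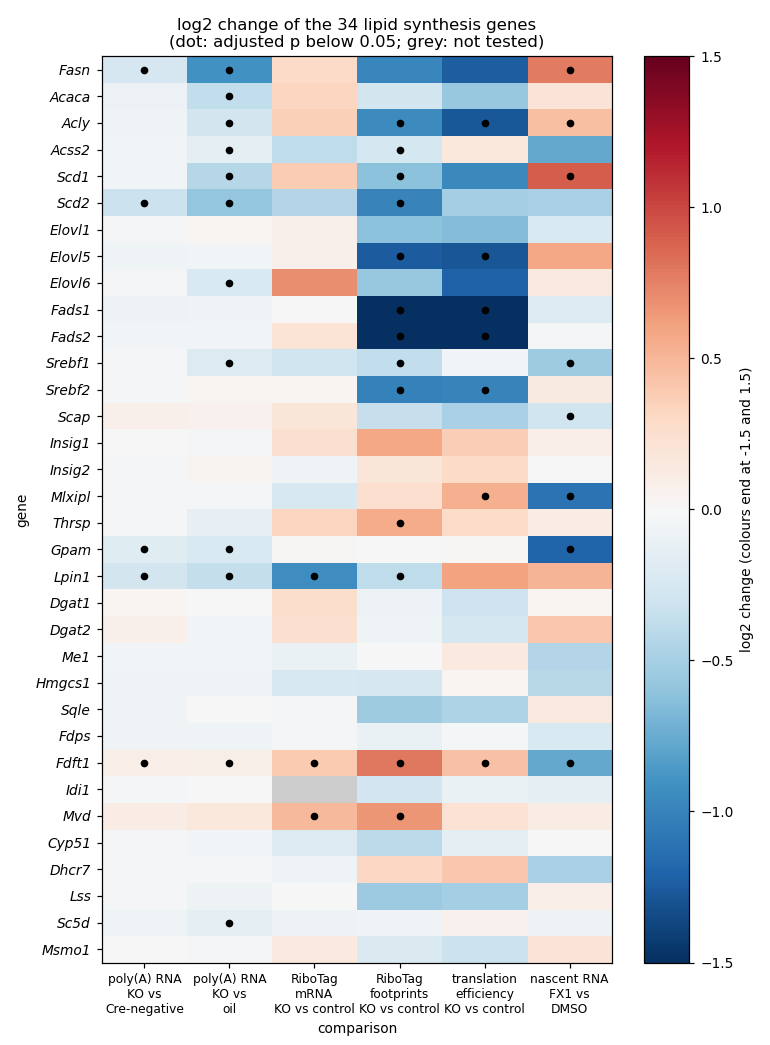
Log2 change of each of the 34 genes (rows) in 6 comparisons (columns), with colours ending at -1.5 and 1.5, a dot where the adjusted p was below 0.05 and grey where the gene was not tested. Dots cluster among the fatty acid genes in the upper rows for poly(A) RNA against oil and for footprints, and Fdft1 carries a dot in all 6 columns.

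A BCL6 peak lay within 1000 bp of the annotated start of 2 of the 34, Thrsp and Fdft1 (5.88%), against 10.9% of the 13732 genes tested in poly(A) RNA. Counted as the nearest gene at any distance, 12 of the 34 had a peak (35.3%), against 34.8% of those genes. These 12 genes held 17 of the 10925 peaks. The peak with the highest score of the 17 (the authors' peak score, 193.6, rank 176 of 10925) lay in intron 23 of 53 of Acaca, acetyl-CoA carboxylase, at chr11:84276134-84276354 (mm10). Elovl5, which lengthens polyunsaturated fatty acids, had a peak of score 105.4 in intron 1 at chr9:77939325-77939545. Fdft1 had a peak of score 53.9 in intron 1 at chr14:63164532-63164752 and a second, of score 25.7, at chr14:63178086-63178306. This second peak lay 309 bp before the start of the transcript named in the peak list, and the count of 2 above uses that start. It lay inside the longer Fdft1 transcript named for poly(A) RNA (chr14:63145151-63179578, minus strand). Srebf2 had peaks of score 41.7 in intron 1 (chr15:82167370-82167590) and 18.4 at 6690 bp before its start (chr15:82140469-82140689), inside an intron of a non-coding transcript. Lpin1 had 3 peaks, Sc5d 2, and Gpam, Me1, Scd1, Insig1 and Acly 1 each, with scores from 13.5 to 80.9. The peaks come from 1 library with no replicate, so these counts have no error.

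Thrsp (Spot14), a small protein that promotes fatty acid synthesis, was the only one of the 26 members with a promoter in the RefSeq table for which that promoter (250 bases before to 50 after the start, build GRCm38.p6, which is mm10) overlapped a BCL6 peak. That peak, at chr7:97417432-97417652, had a score of 35.5, and its centre lay 8 bp from the annotated start. The promoter, chr7:97417501-97417800 on the minus strand, is printed because it overlapped this peak. Capitals mark the 152 bases inside the peak.
Thrsp promoter: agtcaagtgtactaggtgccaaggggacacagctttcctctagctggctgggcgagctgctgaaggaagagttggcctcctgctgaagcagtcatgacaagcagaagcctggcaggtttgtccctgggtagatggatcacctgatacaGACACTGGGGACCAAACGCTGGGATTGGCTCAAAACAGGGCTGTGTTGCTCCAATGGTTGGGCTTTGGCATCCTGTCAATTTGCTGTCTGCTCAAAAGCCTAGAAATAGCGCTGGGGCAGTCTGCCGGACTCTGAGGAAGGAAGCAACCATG
The BCL6 core TTCCTNGAA, searched on both strands, was in 0 of the 26, against 1.86% of all 27025 genes of the table. It was therefore not in the printed Thrsp promoter, and the part of the peak outside that promoter was not searched. CCAAT, the NF-Y site common in promoters of lipid genes, was in 21 of the 26 (80.8%) against 41.1% of all genes, and the Thrsp promoter held it 2 times, both inside the peak. The sterol regulatory element TCACNCCAC, through which SREBP acts, was in 2 of the 26, Hmgcs1 and Mlxipl, against 1.44% of all genes. The 29 bases around each match, both on the plus strand (chr13:119690204-119690232 and chr5:135106745-135106773), are printed with the motif in capitals to show how the 2 matches differ.
Hmgcs1: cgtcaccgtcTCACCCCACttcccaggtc
Mlxipl: atcagtggttTCACACCACgctcactggt
The motif centres lay 133 and 132 bases before the start of Hmgcs1, which makes HMG-CoA for the mevalonate pathway, and of Mlxipl. Neither gene passed the test in poly(A) RNA of either comparison. A match in a promoter is a description of its letters.

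H3K27ac at the BCL6-bound windows of these genes rose in the knockout at 4 windows and fell at 1. Of their 17 windows, 13 reached the minimum mean signal of 10 tags per 10000000, and the 5 calls came from limma on log2(signal + 1). Among all 7998 windows tested, 18.0% rose and 1.58% fell. The Acaca intron window passed that minimum only through the knockouts (mean signal 9.10 in Cre-negative muscle and 31.7 in the knockout), and with no minimum its adjusted p was 3.54e-04. Its signal was 7.33, 9.96 and 10.02 in the 3 Cre-negative libraries and 25.4, 27.7 and 42.01 in the 3 knockouts. The groups did not overlap, and the log2 change was 1.67 (SE 0.26, adjusted p = 4.63e-04). At the Srebf2 intron 1 window the signal was 46.6, 39.4 and 23.9 in Cre-negative muscle and 63.7, 75.3 and 61.5 in the knockout. All 3 knockouts lay above all 3 controls, with a log2 change of 0.90 (SE 0.22, adjusted p = 0.011). The Fdft1 intron 1 window held 179, 212 and 188 in Cre-negative muscle and 248, 292 and 259 in the knockout. It too showed no overlap, with a log2 change of 0.46 (SE 0.10, adjusted p = 0.00628), while the window at the Fdft1 promoter changed by 0.10 (SE 0.13, adjusted p = 0.657). The window over the Thrsp promoter printed above held 105, 105 and 84.4 in Cre-negative muscle and 127, 154 and 119.5 in the knockout, a log2 change of 0.44 (SE 0.14, adjusted p = 0.0404). The Srebf2 window at 6690 bp before the start passed the minimum only through the Cre-negative group (means 16.7 and 5.48) and went the other way, from 25.3, 15.8 and 9.06 to 2.95, 7.48 and 6.00, a log2 change of -1.42 (SE 0.39, adjusted p = 0.021).

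**Figure D2:**
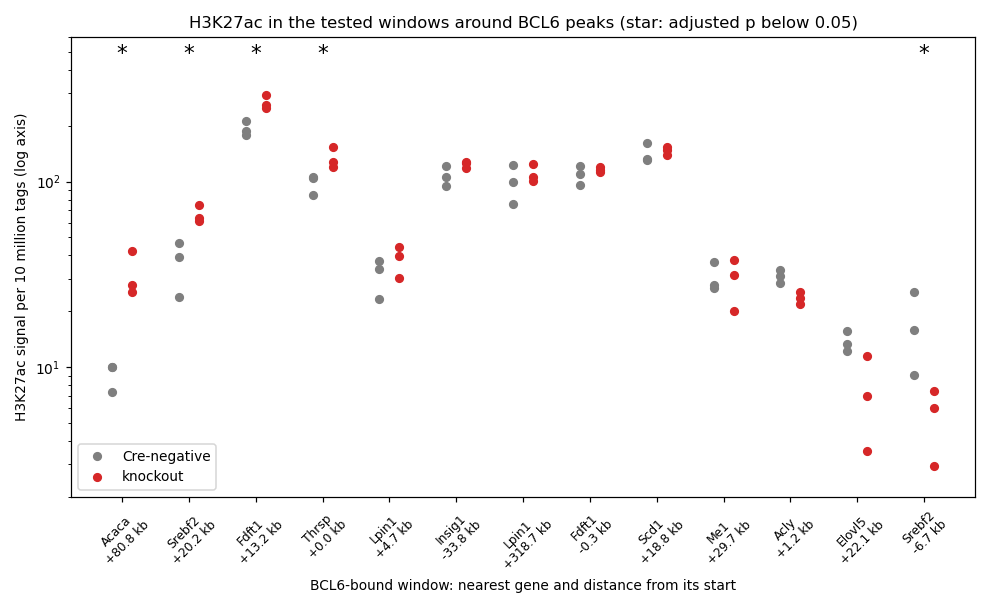
H3K27ac signal per 10000000 tags (log axis) in the 13 tested BCL6-bound windows, ordered by log2 change, with 3 Cre-negative (grey) and 3 knockout (red) libraries each and the nearest gene and its distance under each window. The Acaca intron shows the widest gap, with all knockouts at or above 25.4 and all controls at or below 10.02.

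The median log2 change over all windows was 0.14 as scaled by the authors, -0.06 after quantile normalization and -0.018 with edgeR on recovered reads, a shift of -0.20 and -0.16. The share of calls that rose was 91.9%, 61.3% and 71% in that order. Acaca, both Srebf2 windows and the Fdft1 intron kept direction and call under both scalings, with log2 changes of 1.46 and 1.61 for Acaca, 0.28 and 0.30 for Fdft1, 0.67 and 0.73 for Srebf2 intron 1 and -1.60 and -1.68 for the window that fell. The Thrsp promoter did not stay called (log2 change 0.24, adjusted p = 0.197 after quantile normalization and 0.29, adjusted p = 0.136 with edgeR). It was also lost without any 1 of the libraries Ctr_1899, Ctr_1906, mKO_1896, mKO_1900 and mKO_1907, named as in the labels with Ctr for Cre-negative and mKO for knockout (log2 change 0.33 to 0.51, adjusted p = 0.0533 to 0.181). The Srebf2 window that fell was lost without Ctr_1899, mKO_1896 and mKO_1907 (log2 change -1.51 to -1.10, adjusted p = 0.0522 to 0.0833) and did not reach the minimum signal without Ctr_1898, and the one in intron 1 was lost without mKO_1900 (log2 change 0.81, adjusted p = 0.0547). The Elovl5 intron window passed the minimum only through the Cre-negative group (means 13.8 and 7.33). Its groups did not overlap, and it was not called in limma as scaled by the authors (log2 change -0.94, SE 0.36, adjusted p = 0.0814). It was called lower after quantile normalization (-1.12, adjusted p = 0.0379) and without mKO_1900 (-1.29, adjusted p = 0.0318), and not with edgeR.

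In the acute and chronic series, counted in merged acetylated regions across the genome, 0 regions of these genes were called by limma. The 34 genes had 142 regions (Elovl6 had 0), of which 101 were tested in the acute and 97 in the chronic series, and 0.154% and 0.254% of all regions were called. At an unadjusted p below 0.05 the counts were 4 and 6 regions, against 4037 of 54514 and 3728 of 51220 over all regions tested. With edgeR on recovered reads, 0 and 1 regions of these genes were called. That 1 region lay 368676 bp downstream of the Lpin1 start, between genes, at chr12:16220844-16221344, and is named here after its values were seen. It passed the minimum only through the knockouts (mean signal 4.38 in Cre-negative muscle and 18.4 in the knockout) and did not reach it in the acute series. Its signal was 4.48, 2.57 and 6.08 in Cre-negative muscle and 15.3, 20.96 and 18.97 in the knockout, without overlap, with a log2 change of 1.896 (adjusted p = 0.244) in limma and 1.95 (adjusted p = 0.0404) in edgeR. Of all chronic calls, 93.1% rose in limma and 83% in edgeR. The 32 promoter regions within 1000 bp of a start, of 28 genes, had a median log2 change of -0.011 in the acute series (range -0.51 to 0.63) and -0.0023 in the chronic series (range -0.63 to 0.97).

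Against Cre-negative muscle, 4 of the 34 genes fell in knockout poly(A) RNA and 1 rose (limma on the deposited log2 values, Benjamini-Hochberg over 13732 genes). Over all genes tested, 9.22% fell and 6.04% rose. The 4 that fell, Fasn, Scd2, Gpam and Lpin1, belong to the fatty acid and triglyceride genes (4 of 18), and the 1 that rose, Fdft1, to sterol synthesis (1 of 11). Scd2, a stearoyl-CoA desaturase, had log2 values of 9.98, 9.97, 10.19 and 10.24 in the Cre-negative libraries and 9.75, 9.82, 9.67, 9.80 and 9.81 in the knockouts. The groups did not overlap, and the change was -0.33 (SE 0.05, adjusted p = 0.00109). Lpin1 had 11.68, 11.69, 11.58 and 11.79 against 11.45, 11.39, 11.52, 11.33 and 11.37 in the knockouts, a change of -0.27 (SE 0.045, adjusted p = 9.86e-04). All 5 knockouts lay below all 4 controls. Gpam had 11.21, 11.10, 11.14 and 11.16 in controls and 11.02, 10.97, 10.96, 10.93 and 10.96 in knockouts, also without overlap, a change of -0.18 (SE 0.027, adjusted p = 5.04e-04). Fasn, the fatty acid synthase, had 9.64, 9.99, 9.89 and 9.96 in controls and 9.55, 9.67, 9.46, 9.76 and 9.61 in knockouts. Its groups overlapped, since control P1898 lay below 2 knockouts, and the change was -0.26 (SE 0.07, adjusted p = 0.0235). That call was lost without any 1 of P1899, P1906, P1909, P1895 and P1900 (change -0.25 to -0.22, adjusted p = 0.0514 to 0.0649). Scd1, which is a desaturase like Scd2, had 10.31, 10.70, 10.63 and 10.69 in controls and 10.55, 10.62, 10.56, 10.43 and 10.53 in knockouts, which overlap, and was not called (-0.041, SE 0.07, adjusted p = 0.742). Without P1898, 9 members were called, Acaca, Acly and Scd1 having fallen and Scap having risen in addition.

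Fdft1, squalene synthase, was the only member called higher, with 9.11, 9.10, 9.06 and 9.08 in the Cre-negative libraries and 9.17, 9.18, 9.25, 9.21 and 9.16 in the knockouts. The groups did not overlap, and the change was 0.10 (SE 0.024, adjusted p = 0.0107). The other sterol enzymes were not called: Hmgcs1 changed by -0.07 (SE 0.029, adjusted p = 0.152) and Sqle, squalene epoxidase, by -0.05 (SE 0.031, adjusted p = 0.309). Hmgcs1 had 9.31, 9.42, 9.41 and 9.37 in controls and 9.29, 9.33, 9.30, 9.26 and 9.37 in knockouts, and Sqle had 6.33, 6.49, 6.36 and 6.34 and 6.30, 6.34, 6.34, 6.34 and 6.34. Of the switch, Srebf1 changed by -0.014 (SE 0.032, adjusted p = 0.822), Srebf2 by -0.022 (SE 0.041, adjusted p = 0.772) and Insig1, itself a classic SREBP target, by 0.0021 (SE 0.025, adjusted p = 0.966). Srebf1 had 10.14, 10.11, 10.19 and 10.25 in controls and 10.10, 10.14, 10.19, 10.17 and 10.20 in knockouts, with overlap. Srebf2 had 9.20, 9.25, 9.14 and 9.28 in controls and 9.15, 9.17, 9.16, 9.17 and 9.34 in knockouts, and Insig1 had 7.94, 7.95, 7.86 and 7.90 and 7.94, 7.91, 7.90, 7.93 and 7.90, with overlap in both. The median change of the 34 genes was -0.029, and of all genes 0.0023. The deposited values compress changes, and the authors' deposited table gives larger ones for the same genes: -0.43 for Scd2, -0.33 for Fasn, -0.32 for Lpin1 and 0.16 for Fdft1.

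Against oil-treated Cre-positive muscle, 11 of the 34 genes fell and 1 rose, where 13.5% and 9.89% of 13754 genes did. In this comparison the knockout received tamoxifen and the control did not, so genotype and treatment cannot be told apart, and its knockout libraries are the same 5. The genes that fell were Acly, Acaca, Fasn, Elovl6, Scd1 and Scd2, with Acss2, which activates acetate, the triglyceride enzymes Gpam and Lpin1, the factor Srebf1 and, of the sterol enzymes, Sc5d. Other elongases and desaturases were not called: Elovl1 changed by 0.024, Elovl5 by -0.04, Fads1 by -0.05 and Fads2 by -0.038, and Me1 changed by -0.046 (adjusted p = 0.183 to 0.608 over these 5). Fasn had log2 values of 10.81, 10.62, 10.44 and 10.67 after oil and 9.67, 9.79, 9.57, 9.88 and 9.73 in the knockouts. The groups did not overlap, and the change was -0.91 (SE 0.07, adjusted p = 1.68e-06). Scd2 had 10.26, 10.34, 10.51 and 10.49 after oil and 9.80, 9.88, 9.71, 9.85 and 9.86 in knockouts, a change of -0.58 (SE 0.05, adjusted p = 5.41e-06). Scd1, the main hepatic and adipose desaturase, had 11.22, 11.07, 10.78 and 11.05 against 10.62, 10.69, 10.63, 10.49 and 10.60, a change of -0.43 (SE 0.07, adjusted p = 6.15e-04). Neither desaturase overlapped between the groups.

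The other genes that fell had smaller log2 changes. Acaca had 8.39, 8.54, 8.26 and 8.44 after oil and 8.04, 8.09, 7.96, 8.01 and 8.09 in knockouts, a change of -0.37 (SE 0.048, adjusted p = 1.09e-04). Acly, ATP citrate lyase, had 9.43, 9.26, 9.31 and 9.48 and 9.07, 9.09, 9.09, 9.11 and 9.11, a change of -0.28 (SE 0.039, adjusted p = 2.21e-04). Neither overlapped between the groups, and the 5 knockouts lay closer together than the 4 oil libraries for both. Acss2 had 9.32, 9.30, 9.30 and 9.27 after oil and 9.15, 9.22, 9.14, 9.11 and 9.18 in knockouts, without overlap, a change of -0.14 (SE 0.025, adjusted p = 0.00147). Elovl6, which lengthens palmitate, had 6.64, 6.37, 6.48 and 6.66 and 6.30, 6.40, 6.27, 6.29 and 6.30, which overlap, a change of -0.23 (SE 0.05, adjusted p = 0.00834). Sc5d, a late sterol desaturase, had 8.53, 8.51, 8.48 and 8.41 and 8.31, 8.35, 8.41, 8.32 and 8.35, a change of -0.13 (SE 0.03, adjusted p = 0.00563), again without overlap.

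Srebf1, the factor that drives fatty acid genes, fell in the same libraries, with 10.42, 10.39, 10.43 and 10.42 after oil and 10.15, 10.18, 10.24, 10.22 and 10.25 in knockouts, a change of -0.21 (SE 0.025, adjusted p = 6.72e-05). The groups did not overlap. Srebf2, Scap, Insig1 and Insig2 were not called, with changes between -0.025 and 0.06. Lpin1 had 11.68, 11.93, 11.81 and 11.75 after oil and 11.48, 11.42, 11.55, 11.35 and 11.39 in knockouts, a change of -0.35 (SE 0.049, adjusted p = 2.16e-04). Gpam had 11.31, 11.23, 11.24 and 11.11 and 11.05, 10.997, 10.98, 10.95 and 10.99, a change of -0.23 (SE 0.035, adjusted p = 3.89e-04). Neither overlapped. Fdft1 again rose, from 9.14, 9.15, 9.15 and 9.11 to 9.20, 9.21, 9.28, 9.24 and 9.19, a change of 0.08 (SE 0.024, adjusted p = 0.0245), and that call was lost without P1910 and P1907 (change 0.08 and 0.08, adjusted p = 0.0631 and 0.0535). The authors' deposited table gives -1.12 for Fasn, -0.75 for Scd2 and 0.12 for Fdft1 here, and does not call Fdft1 (authors' adjusted p = 0.144). The median change was -0.13 over the 18 fatty acid and triglyceride genes, -0.021 over the 11 sterol genes and 0.0027 over all genes tested.

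**Figure D3:**
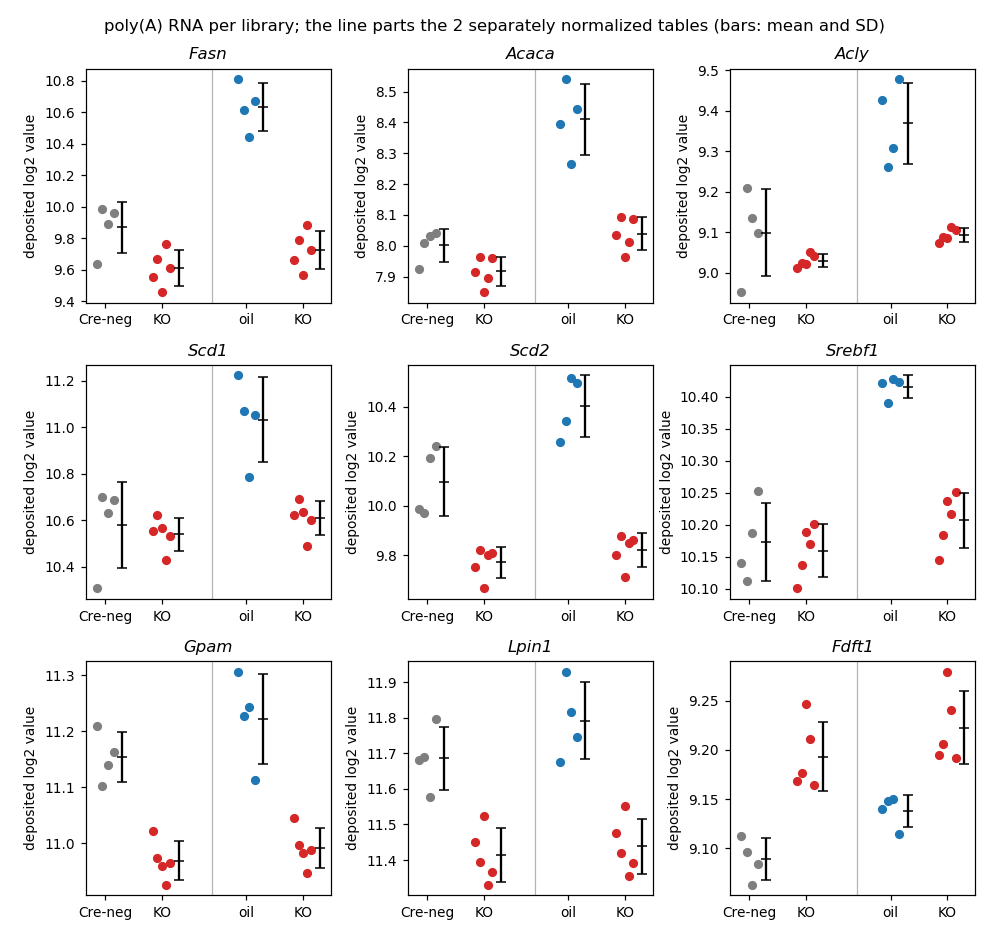
Deposited log2 values of 9 members in each poly(A) library: Cre-negative (grey), oil (blue) and knockout (red), with mean and SD, and a line between the separately normalized tables. For Fasn the oil libraries lie at 10.44 and above, against 9.88 and below in the knockouts, while Cre-negative libraries at 9.64 to 9.99 overlap the knockouts.

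The knockouts are shared by both comparisons, and their values in the 2 tables differ only through the separate normalization. For Fasn, the knockout mean was 9.61 beside Cre-negative controls at 9.87 ± 0.16 (SD, n = 4) and 9.73 beside oil controls at 10.63 ± 0.15 (SD, n = 4). For Srebf1 the knockout mean was 10.16 and 10.21, beside controls at 10.17 ± 0.06 (SD, n = 4) and 10.42 ± 0.018 (SD, n = 4). The difference between the control groups was not tested. Of 12 adipocyte markers, 0 were called by limma in either comparison (1 and 3 at an unadjusted p below 0.05), with a median change of 0.0098 against Cre-negative muscle and -0.06 against oil. Their summed linear level was 5119 to 5929 after oil and 5094 to 5628 in the knockouts. Muscle fibre markers were lower, 3 of 5 called against Cre-negative muscle and 2 of 5 against oil, with summed levels of 52760 to 55660 after oil and 46630 to 50130 in knockouts. In whole muscle, fewer cells of a type and less RNA per cell cannot be told apart.

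In RiboTag mRNA, 1 of 33 members tested fell and 2 rose, where 2.25% and 1.95% of 14476 genes did (edgeR quasi-likelihood test). Idi1 did not pass the count filter. Lpin1 fell again, from 399, 769.6, 469 and 638 CPM in controls to 269, 359, 273 and 284 CPM in knockouts, without overlap, a log2 change of -0.94 (SE 0.18, adjusted p = 0.012). Fdft1 rose again, from 96.4, 85.6, 96.1 and 103 CPM to 121, 121, 137 and 118 CPM, a log2 change of 0.39 (SE 0.09, adjusted p = 0.0297). Mvd, mevalonate diphosphate decarboxylase, rose from 18.4, 19.4, 17.6 and 14.9 CPM to 21.5, 25.5, 26.05 and 25.8 CPM, a log2 change of 0.49 (SE 0.12, adjusted p = 0.0434). Neither sterol enzyme overlapped between the groups.

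Both calls were lost when 1 library was left out: the Mvd call without any 1 of RNA_11673, RNA_11734, RNA_11735, RNA_11745, RNA_11718, RNA_11721 and RNA_11722 (log2 change 0.42 to 0.53, adjusted p = 0.056 to 0.139) and the Fdft1 call without any 1 of RNA_11673, RNA_11734, RNA_11735, RNA_11688, RNA_11718, RNA_11721 and RNA_11722 (log2 change 0.32 to 0.39, adjusted p = 0.052 to 0.116). DESeq2 called 5 members in place of 3, adding falls of Acss2 (log2 change -0.39) and Scd2 (-0.46). The fatty acid genes that fell against oil varied widely here. Fasn mRNA was 174, 84.9, 159 and 655 CPM in controls and 541, 190.3, 265 and 306 CPM in knockouts, and Scd1 was 312, 137, 349 and 796 CPM and 791, 414, 376 and 503 CPM. Control RNA_11745 and knockout RNA_11688 were the highest of their group for both genes. The log2 changes were 0.28 (SE 0.52, adjusted p = 0.835) for Fasn and 0.39 (SE 0.41, adjusted p = 0.696) for Scd1, and neither passed the test.

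Footprints changed for 13 of the 34 genes: 10 fell and 3 rose, where 15.7% and 10.9% of 12979 genes did. The 3 largest falls among the members were those of Fads2, Fads1 and Elovl5. Fads2, the delta-6 desaturase, had 17.8, 15.8, 14.2 and 9.98 CPM in controls and 3.66, 9.19, 3.16 and 3.34 CPM in knockouts, a log2 change of -1.62 (SE 0.34, adjusted p = 0.00469). The groups did not overlap, although knockout RPF_11718 stood apart from the other 3. Fads1, the delta-5 desaturase, had 26.4, 21.9, 17.5 and 8.14 CPM and 7.02, 9.48, 3.16 and 5.49 CPM, a log2 change of -1.60 (SE 0.37, adjusted p = 0.00756), with control RPF_11745 inside the range of the knockouts. Elovl5 had 29.8, 23.8, 24.9 and 20.5 CPM and 10.1, 15.2, 7.47 and 9.79 CPM without overlap, a log2 change of -1.25 (SE 0.22, adjusted p = 0.00226). The log2 changes in RiboTag mRNA were 0.20 (SE 0.21, adjusted p = 0.693) for Fads2, -0.01 (SE 0.19, adjusted p = 0.989) for Fads1 and 0.07 (SE 0.09, adjusted p = 0.731) for Elovl5.

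Both stearoyl-CoA desaturases lost footprints. Scd2 went from 68.3, 94.1, 63.7 and 56.99 CPM to 36.6, 39.9, 31.03 and 37.00 CPM without overlap, a log2 change of -1.002 (SE 0.16, adjusted p = 0.00134). Scd1 went from 156, 111, 168 and 193 CPM to 139.5, 119, 68.4 and 91.7 CPM with overlap, a log2 change of -0.62 (SE 0.20, adjusted p = 0.0343). The 2 genes are close paralogs, and how the counting treated reads shared between them is not given in the sources used here. Acly went from 166, 117, 97.6 and 154 CPM to 104, 82.2, 47.1 and 50.8 CPM, a log2 change of -0.95 (SE 0.23, adjusted p = 0.0102), and Fasn from 747, 463, 516 and 1161 CPM to 635, 448, 185 and 232 CPM, a change of -0.98 (SE 0.35, adjusted p = 0.0545) that did not pass the threshold. Acss2 went from 139.6, 128, 135 and 144 CPM to 121, 107, 109.8 and 127 CPM, a log2 change of -0.26 (SE 0.09, adjusted p = 0.0425). Of the SREBP genes, Srebf2, which drives sterol synthesis, went from 49.7, 42.7, 39.6 and 22.3 CPM to 18.3, 25.9, 14.7 and 19.6 CPM, a log2 change of -1.01 (SE 0.24, adjusted p = 0.00848). Srebf1 went from 151, 171, 156 and 147 CPM to 138, 117, 128 and 111 CPM, a log2 change of -0.37 (SE 0.09, adjusted p = 0.0115). Lpin1 went from 449, 608, 522 and 570.2 CPM to 421, 398, 437 and 426 CPM, a log2 change of -0.38 (SE 0.09, adjusted p = 0.00793). The groups overlapped for Acly and Srebf2 and did not for Acss2, Srebf1 and Lpin1.

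The 3 genes that gained footprints were Fdft1, Mvd and Thrsp, and their groups did not overlap. Fdft1 went from 51.02, 48.1, 48.9 and 55.9 CPM to 91.9, 88.8, 84.2 and 94.3 CPM, a log2 change of 0.79 (SE 0.10, adjusted p = 3.39e-04), the smallest adjusted p of the 34 genes. Mvd went from 17.99, 17.7, 14.5 and 19.7 CPM to 25.03, 32.2, 24.7 and 30.8 CPM, a log2 change of 0.66 (SE 0.16, adjusted p = 0.011). Thrsp, whose promoter is printed above, went from 64.5, 52.3, 59.9 and 84.04 CPM to 122, 93.6, 90.8 and 84.99 CPM, a log2 change of 0.55 (SE 0.15, adjusted p = 0.0157). Thrsp RNA was not called in any comparison. In poly(A) RNA (limma) it changed by -0.024 against Cre-negative muscle (SE 0.056, adjusted p = 0.819) and -0.13 against oil (SE 0.063, adjusted p = 0.175). It changed by 0.32 in RiboTag mRNA (SE 0.28, adjusted p = 0.614) and by 0.11 in nascent RNA (SE 0.26, adjusted p = 0.798). Its translation efficiency changed by 0.27 (SE 0.35, adjusted p = 0.644). The other sterol enzymes were not called. Hmgcs1 had 97.7, 88.9, 89.1 and 69.9 CPM and 71.1, 74.7, 71.8 and 78.8 CPM, a log2 change of -0.25 (SE 0.12, adjusted p = 0.125). Sqle had 8.88, 7.54, 3.28 and 4.46 CPM and 4.58, 3.45, 2.59 and 6.45 CPM, a log2 change of -0.54 (SE 0.38, adjusted p = 0.311). Insig1, the SREBP retention protein, had 8.20, 16.3, 7.11 and 11.03 CPM and 20.5, 17.5, 11.8 and 15.5 CPM, a log2 change of 0.58 (SE 0.27, adjusted p = 0.127). Leaving out 1 library ended the call of Acss2 for any of the libraries except RPF_11722 (log2 change -0.28 to -0.22, adjusted p = 0.0632 to 0.132), of Scd1 for RPF_11673, RPF_11735, RPF_11745, RPF_11721 and RPF_11722 (log2 change -0.61 to -0.46, adjusted p = 0.0618 to 0.0957), of Srebf1 for RPF_11734 (log2 change -0.31, adjusted p = 0.0501) and of Thrsp for RPF_11735 (log2 change 0.50, adjusted p = 0.0558). DESeq2 did not call Acss2. A fall of Fasn was called with no count filter (log2 change -0.95, adjusted p = 0.0126) and without RPF_11734, RPF_11688 or RPF_11718 (-1.34 to -1.07, adjusted p = 0.0158 to 0.0466). It was not called in the other fits that left out a library, or with DESeq2. Leaving out 1 library also added rises of Insig1 (RPF_11734) and Mlxipl (RPF_11745 or RPF_11688) and falls of Hmgcs1 and Elovl1 (RPF_11745).

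**Figure D4:**
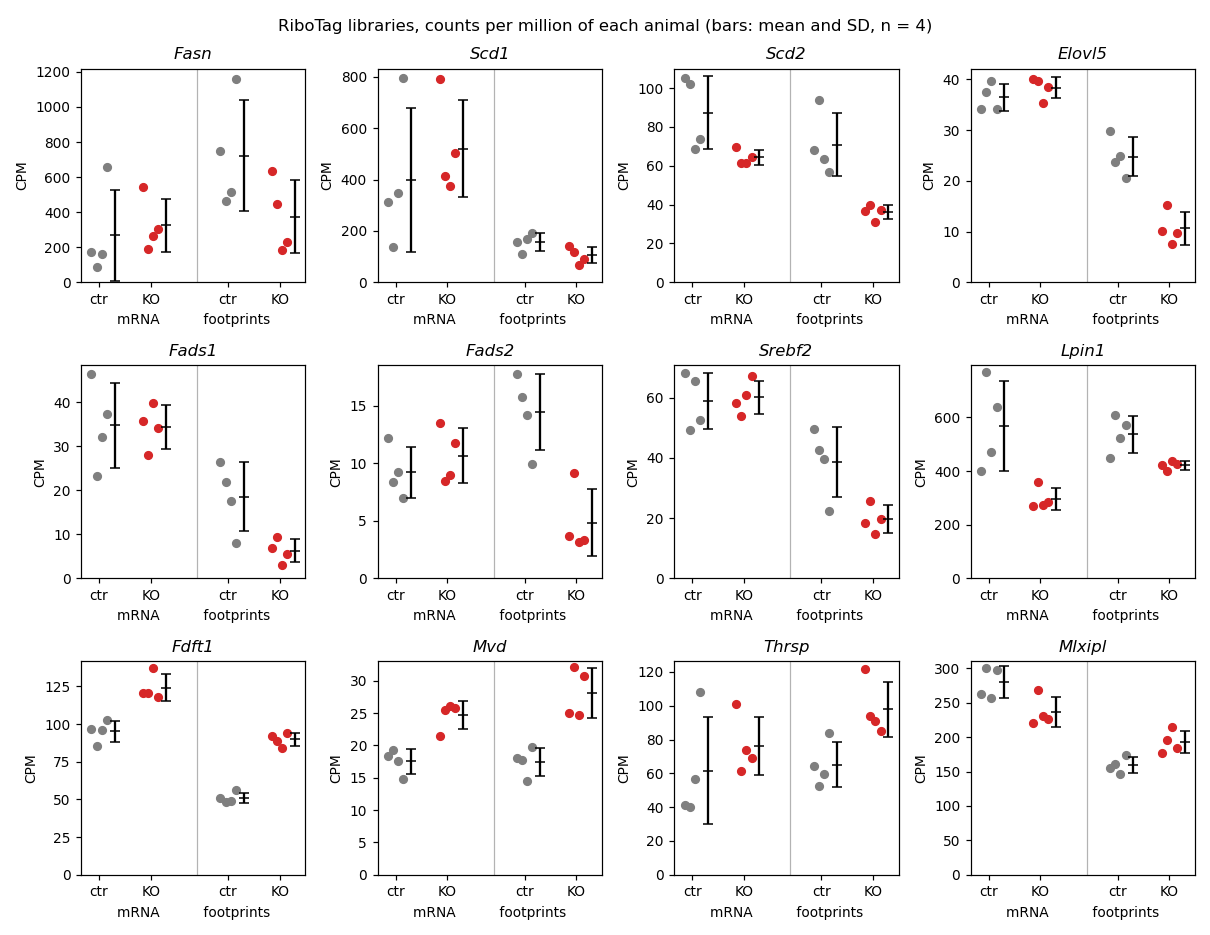
CPM of 12 members in the RiboTag libraries of each animal, mRNA on the left and footprints on the right of each panel, controls grey and knockouts red, with mean and SD (n = 4). For Fads2 and Elovl5 the mRNA groups overlap while the footprints of all 4 knockouts lie below those of all 4 controls, and for Fdft1 both rise.

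Markers of cells other than muscle fibres lost footprints over the same libraries. Of the 39 listed markers of adipocytes, brown adipocytes, Schwann cells, endothelium, macrophages and fibroblasts, 32 were tested, 24 fell and 0 rose, with a median log2 change of -1.07. For the 34 lipid genes the median was -0.28, and for all genes 0.0039. By list, 7 of 10 tested adipocyte markers fell, as did 5 of 5 macrophage, 5 of 5 fibroblast, 4 of 5 endothelial and 3 of 6 Schwann cell markers. The summed footprints of the 12 adipocyte markers were 988 to 1289 CPM in controls and 652 to 924 CPM in knockouts, those of macrophage markers 779.7 to 1123 and 253 to 644 CPM, and those of endothelial markers 326 to 548 and 118 to 302 CPM. Adipoq, the adipocyte hormone adiponectin, changed by -1.23 (SE 0.28, adjusted p = 0.0071). In RiboTag mRNA, 0 of the 39 markers were called, with 1 at an unadjusted p below 0.05 (edgeR). No marker was at 0 in every library of a group. Of the 5 muscle fibre markers, 2 fell in footprints, with summed levels of 26320 to 33100 and 24600 to 41770 CPM. The part of other cells' footprints in the changes of the lipid genes was not tested.

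**Figure D5:**
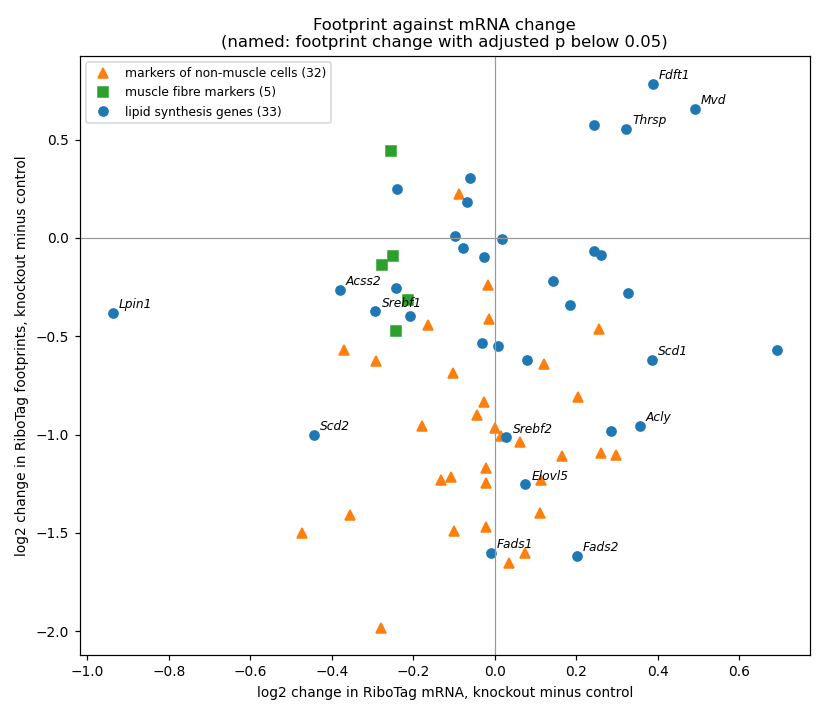
Log2 change in footprints (vertical axis) against log2 change in mRNA (horizontal axis), knockout minus control, for 33 lipid synthesis genes (blue), 32 markers of non-muscle cells (orange) and 5 muscle fibre markers (green). Fads1, Fads2, Elovl5, Srebf2 and Acly lie among the orange points, and Fdft1, Mvd and Thrsp lie above 0 on both axes.

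Translation efficiency, the footprint change beyond the mRNA change (the genotype by library type term of an edgeR fit to all 16 RiboTag libraries), fell for 5 and rose for 2 of the 34 genes. That fit did not pair the libraries by animal. Over 14935 genes, 6.98% fell and 2.93% rose. The genes that fell were Fads2 (-1.78, SE 0.41, adjusted p = 0.0136), Fads1 (-1.55, SE 0.42, adjusted p = 0.0267), Elovl5 (-1.29, SE 0.22, adjusted p = 0.00547), Acly (-1.27, SE 0.39, adjusted p = 0.0456) and Srebf2 (-0.997, SE 0.27, adjusted p = 0.0261). Those that rose were Mlxipl (0.53, SE 0.13, adjusted p = 0.0184) and Fdft1 (0.44, SE 0.12, adjusted p = 0.0303). Mlxipl mRNA was 263, 301, 256 and 298 CPM in controls and 221, 269, 230.1 and 226 CPM in knockouts, and its footprints were 156, 161, 146 and 174 and 176, 196, 214 and 185 CPM. Neither change passed the test on its own; they pointed in opposite directions.

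Footprint and mRNA libraries of 1 animal carry its number, and with the animal as a replicate block 11 members were called in place of 7, 8 lower and 3 higher. The 4 added were Fasn (log2 change -1.62, adjusted p = 0.0131 with the block, -1.23, SE 0.70, adjusted p = 0.263 without it), Scd1 (-1.18, adjusted p = 0.0153, against -0.97, SE 0.51, adjusted p = 0.228), Scd2 (-0.52, adjusted p = 0.0404, against -0.51, SE 0.22, adjusted p = 0.132) and, higher, Lpin1 (0.57, adjusted p = 0.0315, against 0.60, SE 0.22, adjusted p = 0.0858). The 7 calls without the block remained. In the authors' deposited table, Scd1 (-1.62, authors' adjusted p = 0.0394), Scd2 (-1.03, 0.00414) and Elovl1 (-0.91, 0.025) were also lower in translation efficiency. That table does not call Fasn (-1.59, authors' adjusted p = 0.119), Lpin1 (0.59, 0.123) or Fdft1 (0.26, 0.342). Animals were left out 1 at a time only in the fit without the block. Without the animal of RPF_11734, RPF_11688 or RPF_11722, 1 member was called, without RPF_11735 or RPF_11721, 3, and without RPF_11745, 10. Elovl5 was called in each of the 8 fits that left out an animal, and Fads2 was lost in 3 of them (adjusted p = 0.056 to 0.0633, change -1.69 to -1.57), Mlxipl was lost in 4 of them (adjusted p = 0.0596 to 0.0787, change 0.46 to 0.53), Fads1 was lost in 5 of them (adjusted p = 0.0673 to 0.113, change -1.63 to -1.26), Srebf2 was lost in 5 of them (adjusted p = 0.0622 to 0.11, change -1.04 to -0.87), Acly was lost in 6 of them (adjusted p = 0.0524 to 0.129, change -1.30 to -1.11) and Fdft1 was lost in 6 of them (adjusted p = 0.063 to 0.132, change 0.38 to 0.46). The share of all calls that rose was 29.5%, against 40.4% with DESeq2 and 18.7% with no count filter. Of the 39 non-muscle markers, 8 fell and 0 rose in translation efficiency, with a median log2 change of -1.01, against -0.21 for the 34 lipid genes and 0.05 for all genes. The part of other cells in these values was not tested.

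In control muscle alone, the ratio of footprint CPM to mRNA CPM differed widely between members. On the log2 scale it was lowest for Me1 (-2.51 ± 0.13, SD, n = 4), Scap (-1.80 ± 0.35) and Insig2 (-1.39 ± 0.19). It was highest for Idi1 (2.77 ± 0.26), whose mRNA was under 1 CPM in each control, and Fasn (1.77 ± 0.70). The median over the 34 genes was -0.039, and over all genes 0.05. Reads were counted over whole genes in both libraries, so introns enter the mRNA counts. Counts were capped by the authors at 5 tags per position, and 4 members (Scd1, Lpin1, Dgat2 and Gpam) passed 1 tag per exon base in some library, where the cap can flatten a difference.

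In nascent RNA of wild-type mice given FX1, 3 of the 34 genes rose and 5 fell (limma), where 10.5% and 10.1% of 15683 genes did. Fasn, Acly and Scd1 rose, and Gpam, Mlxipl, Fdft1, Srebf1 and Scap fell. Gpam had log2 values of 12.16, 12.04, 11.79, 12.04 and 11.79 after DMSO and 10.27, 10.85, 11.04, 10.90 and 10.76 after FX1, without overlap, a change of -1.20 (SE 0.15, adjusted p = 3.97e-04). Mlxipl had 10.29, 10.24, 9.83, 10.77 and 10.27 and 8.94, 9.06, 9.79, 9.23 and 8.84, a change of -1.11 (SE 0.20, adjusted p = 0.00334). Srebf1, whose product turns on Fasn and Scd1, had 9.18, 9.07, 9.41, 9.31 and 9.18 and 8.75, 8.49, 8.66, 8.88 and 8.69, a change of -0.53 (SE 0.10, adjusted p = 0.00476). Fdft1 had 8.75, 8.49, 8.498, 8.59 and 8.49 and 7.45, 7.54, 8.46, 7.87 and 7.68, a change of -0.76 (SE 0.17, adjusted p = 0.00992). None of these overlapped between the groups, and FX1 library 3 was the nearest to the DMSO libraries for Gpam, Mlxipl and Fdft1. Scap, the SREBP escort, had 8.73, 8.64, 8.65, 8.76 and 8.73 and 8.26, 8.31, 8.65, 8.40 and 8.41, which overlap, a change of -0.30 (SE 0.10, adjusted p = 0.047).

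Fasn rose from 8.97, 8.89, 9.13, 8.76 and 8.80 after DMSO to 10.20, 9.68, 9.17, 9.72 and 9.68 after FX1, without overlap, a change of 0.78 (SE 0.16, adjusted p = 0.00661). Acly rose from 8.93, 9.005, 8.94, 9.03 and 9.005 to 9.76, 9.68, 9.34, 9.09 and 9.32, also without overlap, a change of 0.46 (SE 0.13, adjusted p = 0.027). Scd1 had 8.95, 9.91, 9.89, 8.62 and 9.34 and 10.45, 10.16, 9.64, 10.92 and 10.10, which overlap, a change of 0.91 (SE 0.28, adjusted p = 0.0403). Scd2 was not called (-0.48, SE 0.27, adjusted p = 0.237), nor were Srebf2 (0.14, SE 0.13, adjusted p = 0.482), Insig1 (0.11, SE 0.13, adjusted p = 0.618), Hmgcs1 (-0.42, SE 0.17, adjusted p = 0.1) and Sqle (0.14, SE 0.12, adjusted p = 0.448). Leaving out 1 library ended the Scap call for each of the 10 except FX1 3 (adjusted p = 0.0755 to 0.106, change -0.31 to -0.26). It ended the Scd1 call without DMSO 1, 4 or 5 or FX1 1, 2, 4 or 5 (adjusted p = 0.0592 to 0.0935, change 0.73 to 0.95) and the Acly call without DMSO 1, 2, 3 or 5 or FX1 1 or 2 (adjusted p = 0.0532 to 0.0665, change 0.38 to 0.46). Without FX1 3, 13 members were called, with Elovl5 and Dgat2 higher and Acss2, Me1 and Dhcr7 lower in addition. Without DMSO 5, FX1 1 or FX1 2, 5 were called.

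Adipocyte and muscle fibre markers moved in the same libraries. Of 12 adipocyte markers, 6 fell and 1 (Plin4) rose, Adipoq by -1.49 (SE 0.27, adjusted p = 0.00323) and Adrb3, the adipocyte adrenergic receptor, by -2.23 (SE 0.24, adjusted p = 1.92e-04). Their summed linear level was 12420 to 18230 after DMSO and 15870 to 20040 after FX1. Of 5 muscle fibre markers, 3 fell, and their summed level was 1371000 to 1687000 after DMSO and 710700 to 1091000 after FX1. The part of cell composition in the changes of the lipid genes was not tested. Of the 8 genes called under FX1, Gpam fell both there and in the 2 poly(A) comparisons of the knockout, and Srebf1 fell both there and against oil. Gpam was not called in the RiboTag knockouts in edgeR. Its log2 change there was 0.019 in mRNA (SE 0.10, adjusted p = 0.956) and -0.0051 in footprints (SE 0.09, adjusted p = 0.973). Fasn, Acly and Scd1, which rose under FX1, fell in the knockout against oil, and Fdft1, which fell under FX1, rose in both poly(A) comparisons. Scap and Mlxipl were called in neither poly(A) comparison. These series differ in mice and RNA type, and no difference between them was tested.

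A further 54 genes of the same pathways, listed as 32 for fatty acids and triglycerides and 22 for sterols, gave these counts. Brackets hold the shares of all genes tested that fell and rose. Against Cre-negative muscle 7 of 49 tested fell and 2 rose (9.22% and 6.04%), and against oil 10 of 49 fell and 4 rose (13.5% and 9.89%). In RiboTag mRNA 1 of 50 fell and 1 rose (2.25% and 1.95%), and in footprints 12 of 48 fell and 2 rose (15.7% and 10.9%). In translation efficiency 7 of 51 fell and 0 rose (6.98% and 2.93%), and in nascent RNA 5 of 51 fell and 9 rose (10.1% and 10.5%). Acsl3, which activates long-chain fatty acids, fell against Cre-negative muscle (-0.27, SE 0.05, adjusted p = 0.00321), against oil (-0.41, SE 0.035, adjusted p = 4.42e-06), in RiboTag mRNA (-1.08, SE 0.23, adjusted p = 0.0228), in footprints (-0.89, SE 0.18, adjusted p = 0.00366) and in nascent RNA (-0.90, SE 0.25, adjusted p = 0.028). Agpat5, a lysophosphatidic acid acyltransferase, rose against Cre-negative muscle (0.25, SE 0.031, adjusted p = 1.30e-04), against oil (0.30, SE 0.03, adjusted p = 1.49e-05), in RiboTag mRNA (0.47, SE 0.09, adjusted p = 0.0106) and in footprints (0.47, SE 0.12, adjusted p = 0.0109). Gpat3, which does in the endoplasmic reticulum what Gpam does in mitochondria, rose against Cre-negative muscle (0.22, SE 0.028, adjusted p = 1.64e-04) and against oil (0.32, SE 0.04, adjusted p = 1.01e-04), while Gpam fell in both.

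Aacs, which makes acetoacetyl-CoA for lipid synthesis, fell against Cre-negative muscle (-0.12, SE 0.035, adjusted p = 0.0386), against oil (-0.19, SE 0.048, adjusted p = 0.0123), in footprints (-1.26, SE 0.15, adjusted p = 2.63e-04) and in translation efficiency (-1.31, SE 0.31, adjusted p = 0.0156). Mogat2, a monoacylglycerol acyltransferase, fell in nascent RNA (-1.31, SE 0.18, adjusted p = 7.14e-04) and did not reach the filter in poly(A) RNA or footprints.

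Lpin1 fell in both poly(A) comparisons, in RiboTag mRNA and in footprints. Its nascent RNA under FX1 went the other way and was not called in limma (0.51, SE 0.21, adjusted p = 0.113). The authors' deposited table gives 0.72 for it, with an adjusted p of 0.0228. Fdft1 rose in both poly(A) comparisons, in RiboTag mRNA, in footprints and in translation efficiency. It fell in nascent RNA under FX1 (-0.76, SE 0.17, adjusted p = 0.00992). Its RiboTag mRNA call was lost without any 1 of 7 of the 8 libraries (adjusted p = 0.052 to 0.116) and its translation efficiency call in 6 of the 8 fits that left out an animal (adjusted p = 0.063 to 0.132), and the authors' deposited table gives a translation efficiency change of 0.26 with an adjusted p of 0.342. Fdft1 held 2 BCL6 peaks and a bound intron 1 window with more H3K27ac in the knockout. Acaca held the BCL6 peak with the highest score of the members' 17 peaks, and its RNA changed by -0.09 (SE 0.032, adjusted p = 0.0919) against Cre-negative muscle and by -0.37 (SE 0.048, adjusted p = 1.09e-04) against oil. The 6 animals of the window series carry the same numbers as 3 knockouts and 3 Cre-negative controls of the poly(A) series. The comparisons against Cre-negative muscle and against oil share their knockouts, so their calls are not independent. Members that were not called in the main fit of any of the 6 RNA comparisons were Elovl1, Insig1, Insig2, Dgat1, Dgat2, Me1, Hmgcs1, Sqle, Fdps, Idi1, Cyp51, Dhcr7, Lss and Msmo1, 14 of 34 (41.2%), against 46.3% of the 13732 genes tested against Cre-negative muscle. The authors' deposited table calls Elovl1 lower in translation efficiency.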

How the data were processed

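The series holds 74 samples, 57 of them with a column in the tables used here. Poly(A) and nascent RNA values are log2-transformed values deposited by the authors, with tag totals per the file headers. The transformation is not named and compresses changes of low genes. RiboTag values are read counts over whole genes, deposited by the authors with at most 5 tags per position per the file headers. H3K27ac values are a signal in tags, scaled by the authors to 10000000 per library per the file headers. BCL6 peaks carry the authors' peak score, and the authors' deposited table gives log2 fold changes and adjusted p-values. The submitters' processing notes name Bowtie 1.2, STAR 2.4.0, HOMER, DESeq2 1.14.1 and mm10, without their roles. Poly(A) tags were counted in exons without regard to strand per the file headers, so reads of overlapping antisense genes cannot be told apart.

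Here, log2 values with a mean of at least 3.322 (10 tags) were tested with limma 3.58.1 (trend) in R 4.3.3. RiboTag counts were tested with edgeR 4.0.16 (TMM, quasi-likelihood, filterByExpr with a minimum of 10), and log2(signal + 1) with limma at a mean signal of at least 10. P-values were Benjamini-Hochberg adjusted over all features, called below 0.05. DESeq2 1.42.0, other filters, pseudocounts and scalings, replicate blocks, libraries left out 1 at a time and, chosen after seeing the data, edgeR on whole reads recovered from the H3K27ac signal were alternatives. Scripts were tested on simulated data. Footprint and mRNA libraries pair because they come from the same animal, with correlations of their deviations from -0.16 to 0.478 over the 8 animals.

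All 34 members are accounted for. Values in every sample are given for members called in a comparison, in that comparison, and for 8 genes whatever their values (Fasn, Scd1, Scd2, Srebf1, Srebf2, Insig1, Sqle and Hmgcs1) against Cre-negative muscle and in footprints. Of other pathway genes the 6 with the smallest adjusted p were to be named, of which 1 is not reported here. The members and lists were chosen with earlier results of these data known.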

Additional observations from a re-analysis of the deposited data

Results flagged for a closer look

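Dixon's test at the 95% level was applied to 77 groups of 4 or 5 libraries of the named genes, where chance flags about 1 group in 20, and 5 libraries stood apart. In poly(A) RNA of the table with oil controls, knockout P1896 had a log2 value of 6.40 for Elovl6, with the nearest knockout at 6.30, and oil control P1904 had 10.39 for Srebf1, with the nearest at 10.42. In RiboTag mRNA, knockout RNA_11721 had 137 CPM of Fdft1 against 121 in the nearest knockout, and knockout RNA_11688 had 21.5 CPM of Mvd against 25.5. In footprints, knockout RPF_11718 had 9.19 CPM of Fads2 against 3.66 in the nearest knockout. No acetylated region of these genes moved without overlap in opposite directions in the acute and chronic series.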

How the results depend on the processing

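Of the settings tried for single members and windows, other filters, scalings and tools kept 167 calls and lost 14, and leaving out 1 library or animal kept 351 and lost 95. None reversed a direction. With DESeq2, 5 members were called in RiboTag mRNA in place of 3 (958 and 609 genes of all). With the animal as replicate block, 11 were called in translation efficiency in place of 7. In nascent RNA the numbers are not known to pair libraries. Same-numbered libraries had correlations of deviations from -0.429 to 0.175, and 1 of 10 was closest to its own number. With the number as replicate block, 5 members were called in place of 8 (1853 and 3229 genes). A BCL6 peak lay within 5000 bp of 4 members and at any distance of 12. In the chronic series edgeR on recovered reads called 1 member region in place of 0. Over all regions it called 399 in the chronic and 161 in the acute series, against 130 and 84 in limma, with 286 after quantile normalization and 224 with a pseudocount of 5 in the chronic series. All H3K27ac values lay within 0.05 of a whole read (100%), and edgeR called 1310 bound windows against 1562 in limma. Leaving out 1 library gave 4 to 9 called members against Cre-negative muscle, 11 to 13 against oil, 5 to 13 in nascent RNA, 1 to 2 in RiboTag mRNA, 10 to 14 in footprints, 1 to 10 in translation efficiency, 3 to 4 bound windows and 0 to 0 acute and chronic regions. At the depth of RiboTag mRNA, Idi1 did not reach the count filter and was not tested.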
